A study of Mus musculus with 6 samples.

Results

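The genes described here encode the histone lysine methyltransferases and histone lysine demethylases of the mouse, as read on Affymetrix 3' expression arrays of bone marrow. Members were chosen by gene symbol: every Kdm, Kmt and Setd or Setdb gene with a number or letter after that stem, and Ezh1, Ezh2, Ehmt1, Ehmt2, Nsd1, Nsd2, Nsd3 and Dot1l. This gave 44 genes of the 18193 named genes on the arrays, 26 methyltransferases and 18 demethylases, read by 127 of 34945 probe sets with a symbol of their own. A probe set is a group of short probes for 1 transcript region. The brightest probe set over the 6 arrays stood for each gene, and values are log2 of the RMA intensity, a background-corrected and normalized brightness. The symbol rule itself uses no measured value, but it was chosen with earlier results of these data known.

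Methyltransferases place methyl groups on lysines of histone tails, and demethylases take them off. The effect depends on the lysine: methylated H3K4 (the lysine at position 4 of histone H3) marks promoters and enhancers in use, H3K36 and H3K79 methylation accompany transcribed gene bodies, H3K9 and H3K27 methylation go with silencing, and H4K20 methylation with chromosome condensation and replication. Several of these enzymes are known from blood formation. Kmt2a is needed by blood stem cells, Kdm1a works with the repressors Gfi1 and Gfi1b in red cell and granulocyte development, and Ezh2 takes part in B cell development.

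All animals were hemizygous adults of the transgenic line Tg(Ren1-GFP)2Kwg, 3 to 6 months old, in which a renin gene construct drives green fluorescent protein (GFP). Femoral marrow of 4 to 5 male and female mice was pooled for each replicate, and RNA was taken from unsorted marrow (presort, n = 3) and from cells sorted for GFP (sorted, n = 3). The sort also removed erythrocytes and debris by scatter and doublets by a gate on single cells, and its GFP limit admitted 0.1% of cells from animals without the transgene. The comparison asks how marrow cells with an active renin construct differ from whole marrow, but the groups differ by all of these gates together.

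The arrays do not match the labels at every point. Xist, the RNA of the inactive X chromosome and present in female cells, read 6.13, 8.77 and 6.33 in presort replicates 1, 2 and 3 and 6.16, 11.52 and 10.77 in sorted replicates 1, 2 and 3 (log2 intensity of its brightest probe set). Xist was thus low in both arrays of replicate 1, although both sexes are stated, and in presort replicate 3. Its sorted minus presort difference was 0.02 in replicate 1, 2.75 in replicate 2 and 4.44 in replicate 3, although the arrays of a replicate should share a pool. The Y-linked gene Eif2s3y was read in every array, from 11.18 to 12.56. It was higher in sorted samples by 0.72 ± 0.23 (SE, limma adjusted p = 0.0447). Results without each of the 3 replicates are therefore given below. Of the marker genes, 8 of 9 of the B lineage were higher in sorted samples, while 18 of 19 cell division, 8 of 9 erythroid, 10 of 10 neutrophil and 9 of 9 monocyte and macrophage genes were lower. Over all genes 14.5% were higher and 18.1% lower by the same test. For beta-actin, the 3' minus 5' difference in log2 intensity, which grows as RNA or its copies get shorter, was 0.96 ± 0.15 in presort and 2.05 ± 0.98 in sorted samples (SD, n = 3 each), with sorted replicate 1 at 3.17 (two-sided exact permutation test, p = 0.1, the smallest possible). In bulk samples fewer cells of a type and less RNA per cell cannot be told apart.

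Most called members of this family, as the symbol rule draws it, rose, and most of these rises were under 2-fold. In sorted samples 21 of the 44 members (47.7%) were higher and 4 (9.09%) lower, against 14.5% and 18.1% of all 18193 genes (limma, Benjamini-Hochberg adjusted p under 0.05 over all genes). The median difference over the members was 0.44 on the log2 scale, against -0.0021 over all genes. The rises ran from 0.37 for Ezh1 to 2.47 for Kdm1b, and 5 of them reached 2-fold, and among the falls Kmt5a did. The arrays of the groups did not overlap for 24 members with sorted above and for 4 with sorted below, against 20.9% and 23.6% of all genes. All 25 called members were among these, so their 3 replicate pairs necessarily differed in 1 direction, which adds no further evidence. Among the 12135 genes left under a filter that drops the genes of lowest mean, where 43 members remain, 22 members were higher and 4 lower, against 21.2% and 25.7% of those genes.

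**Figure D1:**
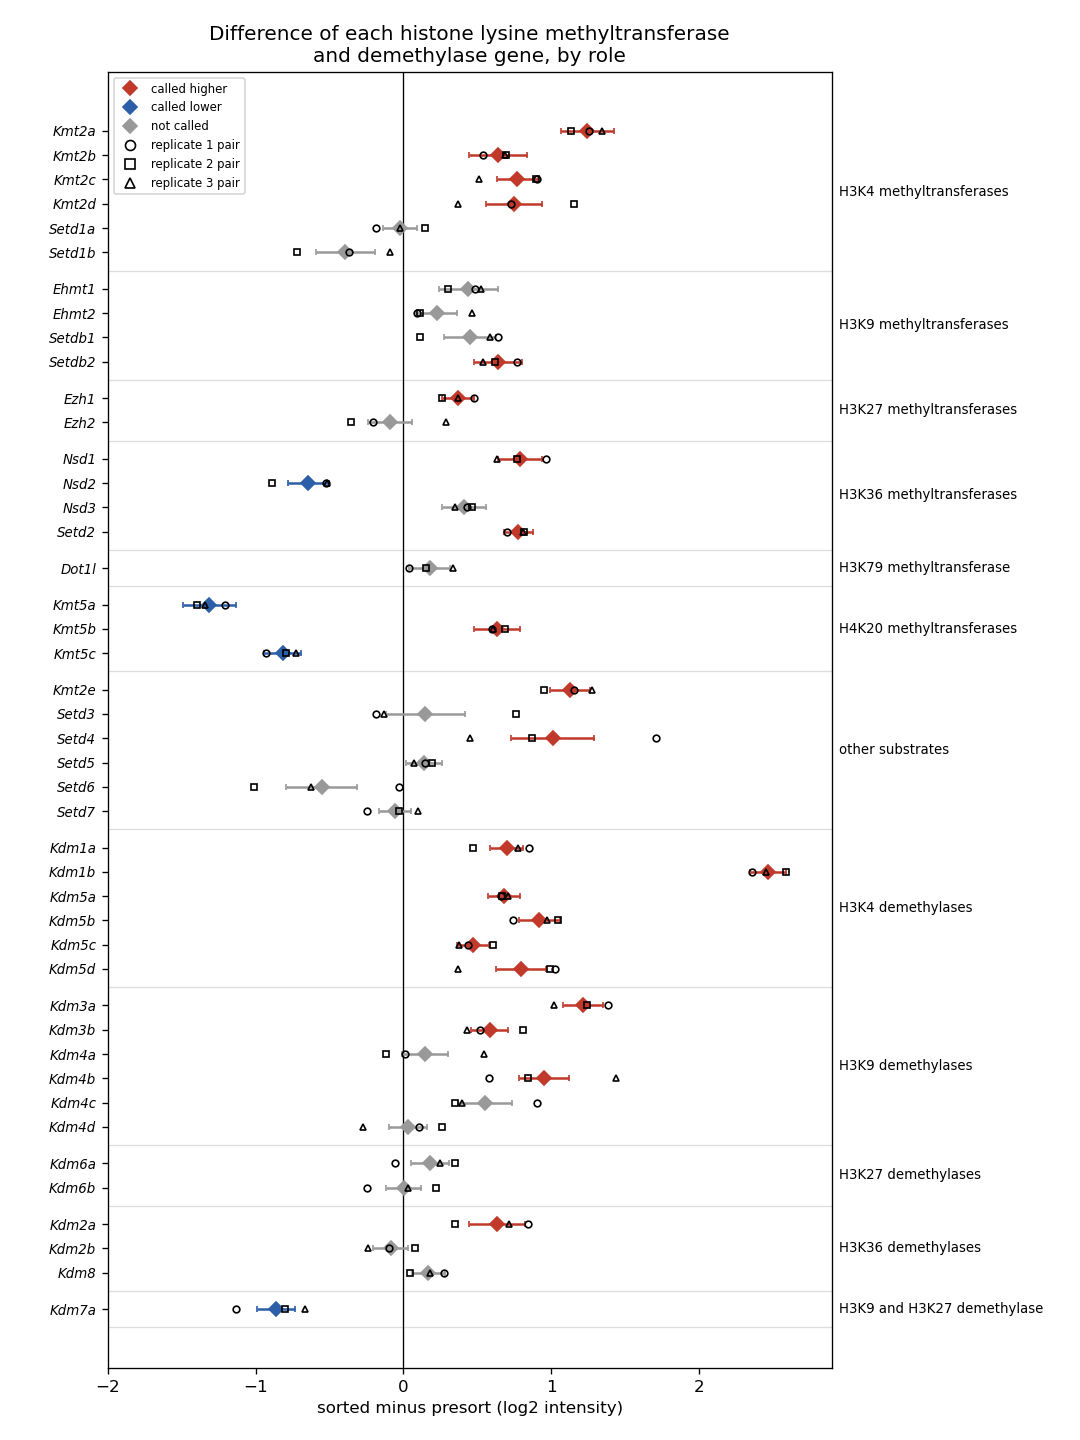
Difference between sorted and presort samples (x axis, log2 intensity) for each of the 44 genes, grouped by the lysine the enzyme acts on; diamonds with bars are the limma difference and its SE, open symbols the 3 replicate pairs. All 6 H3K4 demethylases lie to the right of 0 with Kdm1b farthest at 2.47, and Kmt5a lies farthest to the left at -1.31.

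The number of rises differed with the libraries used and with a term for RNA quality. Without replicate 1 there were 21 higher and 5 lower members, against 13.2% and 17.7% of all genes. Without replicate 2 there were 12 and 3, against 10.3% and 13.6%, and without replicate 3 there were 15 and 3, against 8.49% and 13.0%, so that fewer of all genes passed as well. When that beta-actin difference entered the fit as a covariate, 13 members were higher and 5 lower, against 11.5% and 15.0% of all genes, and the median over the members was 0.27 where that of all genes was 0.03. With the replicate number as a block 25 members were higher and 4 lower, together 65.9%, against 35.2% of all genes. The 13 members higher beside the beta-actin covariate were Kdm1a, Kdm1b, Kdm3a, Kdm4b, Kdm5a, Kdm5b, Kdm5c, Kmt2a, Kmt2c, Kmt2e, Kmt5b, Nsd1 and Setd2. Of the 21 risers, 14 had their highest sorted value in replicate 1, the array with the largest beta-actin difference. The same count was not made over all genes, so the 14 have no background to be read against. The part of RNA quality in these values was not tested beyond that covariate. The called members whose call held under all 18 alternatives were Kdm1a, Kdm1b, Kdm3a, Kdm4b, Kdm5a, Kdm5b, Kmt2a, Kmt2e, Kmt5a, Kmt5c, Nsd1 and Setd2.

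Promoters were read from RefSeq (GRCm38.p6) for 33 of the 44 members, which list 44 starts, as the 250 bases before each start. They are shown for the largest rise, Kdm1b, and for 2 members that fell, Kmt5c and Kdm7a, each with 1 listed start, because they differ in base composition and in the letters they hold. Capitals mark, on either strand, CCAAT (the letters of the NF-Y box), TTCCCGCC (letters of an E2F site, the class of factors active at the start of S phase) and GGGCGG (the GC box bound by Sp1); the last pair can overlap.
Kdm1b, chr13:47043249-47043498, plus strand: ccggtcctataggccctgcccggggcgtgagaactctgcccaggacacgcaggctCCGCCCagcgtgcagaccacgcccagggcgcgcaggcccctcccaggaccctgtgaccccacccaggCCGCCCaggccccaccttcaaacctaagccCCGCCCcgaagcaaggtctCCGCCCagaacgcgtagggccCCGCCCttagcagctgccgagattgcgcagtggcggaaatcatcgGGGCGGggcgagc
Kmt5c, chr7:4739877-4740126, plus strand: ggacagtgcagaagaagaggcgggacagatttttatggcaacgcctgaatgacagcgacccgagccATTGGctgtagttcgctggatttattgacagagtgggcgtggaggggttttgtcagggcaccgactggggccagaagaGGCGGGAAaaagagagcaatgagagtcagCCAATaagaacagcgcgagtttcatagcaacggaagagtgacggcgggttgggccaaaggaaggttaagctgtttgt
Kdm7a, chr6:39206774-39207023, minus strand: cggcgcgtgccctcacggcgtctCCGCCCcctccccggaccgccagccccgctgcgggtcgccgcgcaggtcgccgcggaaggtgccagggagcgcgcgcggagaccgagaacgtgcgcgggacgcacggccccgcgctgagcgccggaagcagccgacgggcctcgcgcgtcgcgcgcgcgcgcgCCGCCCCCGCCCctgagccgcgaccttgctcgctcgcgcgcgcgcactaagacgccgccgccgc

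The window of Kdm1b held 6 GC boxes and neither CCAAT nor the E2F letters. The window of Kmt5c held 2 CCAAT and 1 E2F match and no GC box, and that of Kdm7a held 3 GC boxes and a GC content of 82.0%, against 71.6% for Kdm1b and 53.6% for Kmt5c. Over the family the windows were rich in GC, with a median of 62.8% against 52.4% over all 32851 promoters listed. GGGCGG stood in 27 of the 44 windows (61.4%), against 32.7% of all promoters, and CCAAT in 18 (40.9%), against 33.8%. The E2F letters stood in 1 window, that of Kmt5c (2.27%, against 1.86%), and TGACGTCA, the full cAMP response element, in none of the 44 (against 1.55%). CCAAT stood in 5 of the 17 windows of members that rose, in 4 of the 5 of members that fell and in 9 of the 22 of uncalled members. GGGCGG stood in 10 of the 17, 4 of the 5 and 13 of the 22. Of the 5 windows of members that fell, 3 are starts of Kmt5a, and each of these holds both. These matches describe letters and are no evidence of binding.

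The 6 members grouped here as H3K4 demethylases all passed the test as higher, against 14.5% of all genes, with a median difference of 0.75. This group holds only genes within the symbol rule, and related enzymes outside that rule, given further below, moved both ways. Kdm1a and Kdm1b are flavin-dependent amine oxidases, and Kdm5a to Kdm5d are iron-dependent JmjC enzymes. Kdm1b read 8.86, 8.72 and 8.60 in presort and 11.23, 11.31 and 11.06 in sorted replicates 1, 2 and 3. Its groups lay far apart, the largest difference of the family at 2.47 ± 0.12 (SE, 5.54-fold, limma adjusted p = 1.58e-05) and it was 2.41 once beta-actin was a covariate. A call for Kdm1b rests on 1 probe set.

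Kdm1a, the catalytic subunit of the CoREST repressor complex, read 10.34, 10.53 and 10.32 in presort and 11.19, 11.004 and 11.09 in sorted replicates 1, 2 and 3. It rose by 0.70 ± 0.11 (SE, 1.62-fold, limma adjusted p = 0.00208), and its second probe set gave 0.70 as well. All sorted arrays of Kdm1a lay above all presort arrays, and its rise stood beside 2.47 for its paralogue Kdm1b, a difference between genes that was not tested.

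Of the Kdm5 genes, Kdm5b had the largest rise. It read 9.07, 9.20 and 9.19 in presort and 9.81, 10.24 and 10.17 in sorted replicates, a rise of 0.92 ± 0.14 (SE, limma adjusted p = 0.00142), and its 3 other probe sets rose by 1.17 to 1.69. Kdm5a read 9.90, 9.74 and 9.84 in presort and 10.57, 10.41 and 10.55 in sorted replicates, a rise of 0.68 ± 0.11 (adjusted p = 0.00181). In both genes every sorted array exceeded every presort array. Of the 6 probe sets of Kdm5a 4 were called higher.

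The X-linked Kdm5c and its Y-linked paralogue Kdm5d are read beside the sex make-up of the samples. Kdm5c read 10.02, 10.004 and 10.002 in presort and 10.46, 10.61 and 10.38 in sorted replicates, a rise of 0.47 ± 0.11 (SE, limma adjusted p = 0.0110). Kdm5d read 8.55, 8.43 and 8.58 in presort and 9.58, 9.43 and 8.95 in sorted replicates, a rise of 0.80 ± 0.17 (adjusted p = 0.00791). The groups of both genes did not overlap. The pair difference of Kdm5d was 1.03 in replicate 1, 0.99 in replicate 2 and 0.37 in replicate 3. Beside it, Xist differed by 0.02, 2.75 and 4.44 and the Y-linked Eif2s3y, also called higher, by 1.17, 0.53 and 0.45. The Y-linked Uty stood at -0.22 and was not called (adjusted p = 0.242). The part of the sex make-up in these values was not tested. Without replicate 2 neither passed (Kdm5c 0.41, adjusted p = 0.107; Kdm5d 0.70, 0.0902), without replicate 3 Kdm5c did not (0.52, 0.0709), and beside the beta-actin covariate Kdm5d did not (0.54, 0.0850). Averaged over its 3 probe sets Kdm5d stood at 0.36 and passed.

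Not all methyltransferases of H3K4 passed the test. Of 6 measured genes 4 rose (66.7%) and none fell, against 14.5% and 18.1% of all genes. Kmt2a, Kmt2b, Kmt2c and Kmt2d passed, while Setd1a at -0.02 and Setd1b at -0.39 did not (limma adjusted p of 0.923 and 0.195). The dimmer probe set of Setd1a was called higher at 0.62 (adjusted over probe sets, 0.0331), and differences between these genes were not tested. Kmt2a, the mixed-lineage leukaemia gene, read 9.46, 9.02 and 9.06 in presort and 10.72, 10.16 and 10.41 in sorted replicates 1, 2 and 3. It rose by 1.25 ± 0.18 (SE, 2.37-fold, adjusted p = 0.00117), the second probe set by 1.07, and no sorted array came down to the presort range.

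**Figure D2:**
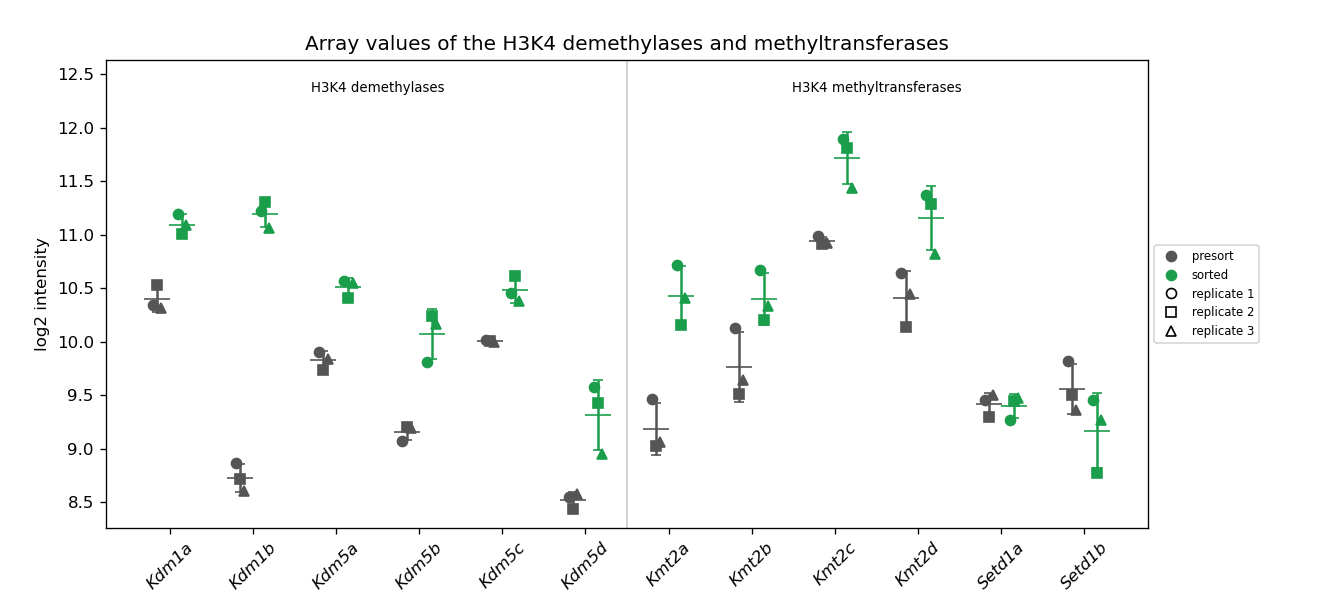
Log2 intensity (y axis) of the H3K4 demethylases and H3K4 methyltransferases on each array; symbols are replicates, grey is presort, green is sorted, and bars are mean ± SD (n = 3). Groups are apart for Kdm1a to Kdm5d and for Kmt2a to Kmt2d and overlap for Setd1a and Setd1b.

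Kmt2c and Kmt2d, which methylate H3K4 at enhancers, rose by 0.77 ± 0.14 and 0.75 ± 0.19 (SE, limma adjusted p of 0.00354 and 0.0172). All 4 probe sets of Kmt2c were called, with rises up to 1.14, whereas the dimmer probe set of Kmt2d stood at -0.08. Kmt2b rose by 0.64 ± 0.19 (adjusted p = 0.0377), with arrays from 9.51 to 10.13 in presort and 10.20 to 10.67 in sorted samples, so that its groups nearly touched. Kmt2c narrowly missed without replicate 2 (0.71, adjusted p = 0.0506). Kmt2d missed without replicate 2 (0.55, 0.152), presort replicate 2 (0.61, 0.0671), presort replicate 3 (0.77, 0.0529) or sorted replicate 2 (0.69, 0.0534). Kmt2b missed without replicates 2 or 3 (0.61, 0.117; 0.62, 0.205) and without presort replicates 2 or 3 or sorted replicates 1 or 3 (adjusted p of 0.137, 0.128, 0.0921 and 0.0734). With the beta-actin covariate Kmt2b stood at 0.35 and Kmt2d at 0.52 and neither passed (0.326 and 0.162), and averaged over its probe sets Kmt2d stood at 0.34 and passed.

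The 3 methyltransferases of H4K20 moved in opposite directions. Kmt5a, which sets the first methyl group on H4K20 and is regulated through the cell cycle, read 11.66, 11.26 and 11.44 in presort and 10.45, 9.86 and 10.09 in sorted replicates 1, 2 and 3. It fell by 1.31 ± 0.18 on the log2 scale (SE, 2.49-fold lower, limma adjusted p = 0.000806), the largest fall of the family, and its second probe set fell by 1.62. Kmt5c, which adds further methyl groups, read 9.06, 9.22 and 9.18 in presort and 8.13, 8.42 and 8.45 in sorted replicates and fell by 0.82 ± 0.13 (adjusted p = 0.00151). Both stood lower in every sorted array than in any presort array.

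Kmt5b, the paralogue of Kmt5c with the same reaction, went the other way. It read 9.23, 9.56 and 9.55 in presort and 9.82, 10.25 and 10.16 in sorted replicates 1, 2 and 3. The rise was 0.63 ± 0.16 (SE, limma adjusted p = 0.0154), and the next brightest probe set rose by 1.89 while the other 3 were not called. Its call was lost without replicates 2 or 3 (0.60, adjusted p = 0.0845; 0.64, 0.107), without presort replicate 1 (0.52, 0.0517) or without sorted replicate 3 (0.59, 0.0517). Beside these changes the 19 measured cell division genes had a median difference of -2.05, with 18 lower, and the part of cell division in the falls of Kmt5a and Kmt5c was not tested.

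**Figure D3:**
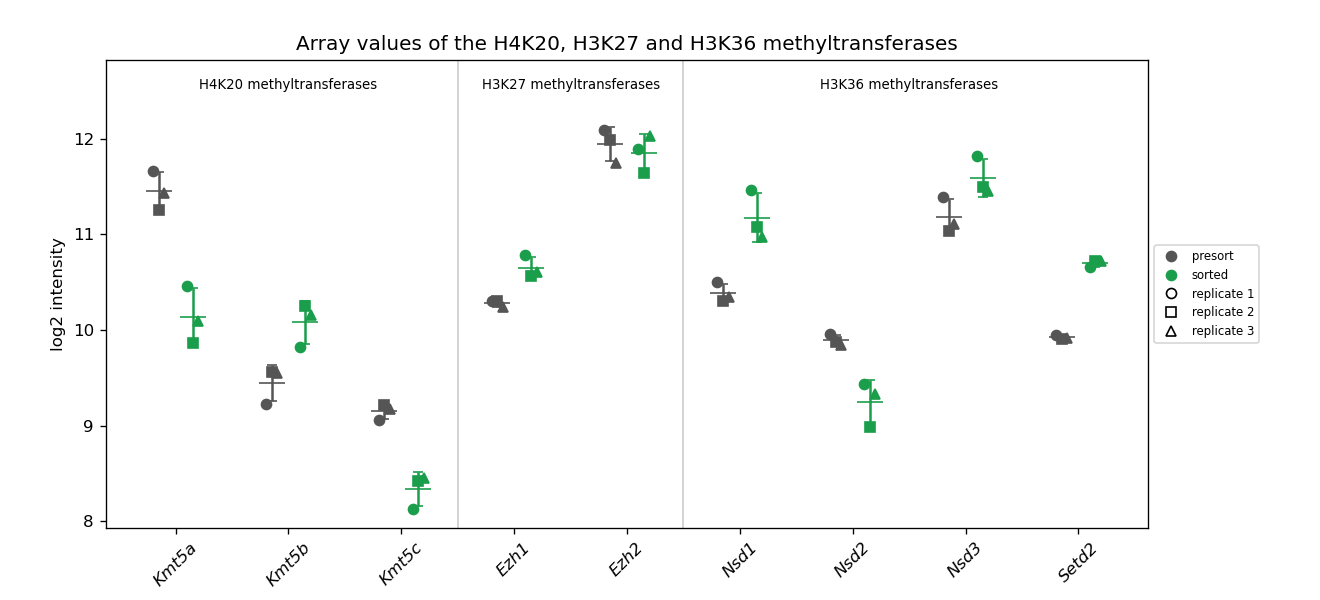
Log2 intensity (y axis) of the H4K20, H3K27 and H3K36 methyltransferases on each array; symbols are replicates, grey is presort, green is sorted, and bars are mean ± SD (n = 3). Kmt5a, Kmt5c and Nsd2 are lower in sorted samples, Kmt5b, Ezh1, Nsd1 and Setd2 higher, and Ezh2 overlaps.

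Of the H3K27 methyltransferases, the catalytic subunits of Polycomb repressive complex 2 (PRC2), neither changed much. Ezh2, the form of dividing cells, read 12.09, 11.99 and 11.74 in presort and 11.89, 11.64 and 12.03 in sorted replicates 1, 2 and 3. The groups overlapped, the difference was -0.09 ± 0.15 (SE, limma adjusted p = 0.726), and the replicate pairs gave -0.20, -0.35 and 0.29. Ezh1, the form of resting cells, read 10.30, 10.30 and 10.24 in presort and 10.78, 10.56 and 10.61 in sorted replicates. Ezh1 passed with groups apart, at 0.37 ± 0.11 (adjusted p = 0.0321), but this was a weak call. It was lost without any of the arrays except sorted replicate 2 (adjusted p from 0.0588 to 0.118) and without replicates 1, 2 or 3 (0.0947, 0.110 and 0.189). It was also lost with an intensity trend and robust prior (0.0595). Averaging its 4 probe sets gave 0.08 (0.592), the beta-actin covariate 0.25 (0.223), and median centring of the arrays 0.60, where it was called.

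Among the H3K36 methyltransferases 2 of 4 rose and 1 fell, against 14.5% and 18.1% of all genes. Setd2, which makes trimethylated H3K36 behind elongating RNA polymerase, read 9.95, 9.90 and 9.91 in presort and 10.65, 10.72 and 10.72 in sorted replicates. It had the least spread of the larger rises, at 0.78 ± 0.10 (SE, limma adjusted p = 0.000554). Nsd1 read 10.50, 10.30 and 10.34 in presort and 11.46, 11.08 and 10.97 in sorted replicates and rose by 0.79 ± 0.15 (adjusted p = 0.00445). With the beta-actin covariate Nsd1 stood at 0.50 and passed.

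Nsd2, which makes dimethylated H3K36, was lower in sorted samples. It read 9.96, 9.87 and 9.85 in presort and 9.43, 8.98 and 9.33 in sorted replicates, a fall of 0.65 ± 0.14 on the log2 scale (SE, limma adjusted p = 0.00825), and 3 of its 5 probe sets were called lower. The call was lost without replicates 2 or 3 (-0.52, adjusted p = 0.0562; -0.71, 0.0639) and under median centring of the arrays (-0.42, 0.0577). Nsd3 read 11.39, 11.03 and 11.10 in presort and 11.82, 11.50 and 11.45 in sorted replicates. Its groups did not overlap, but at 0.41 ± 0.15 it did not pass (adjusted p = 0.0717), and with the replicate number as a block it did (0.0250). The Nsd3 difference ran from 0.16 to 0.64 over the alternatives, and its adjusted p reached 0.512. Dot1l, the methyltransferase of H3K79, did not pass at 0.18 ± 0.14 (0.421).

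Of the H3K9 methyltransferases 1 of 4 rose and none fell, against 14.5% and 18.1% of all genes. Setdb2 read 9.30, 9.10 and 8.998 in presort and 10.07, 9.72 and 9.53 in sorted replicates and rose by 0.64 ± 0.16 (SE, limma adjusted p = 0.0170). Its groups were apart, but the call was lost without replicates 2 or 3 (0.65, adjusted p = 0.105; 0.70, 0.0570), without presort replicates 2 or 3 (0.0616 and 0.0724), and with the beta-actin covariate (0.33, 0.161). Setdb1, a trimethylating enzyme that acts with the corepressor Trim28, read 8.90, 8.76 and 8.79 in presort and 9.54, 8.88 and 9.38 in sorted replicates. At 0.45 ± 0.18 Setdb1 did not pass (0.0932), with groups that overlapped through sorted replicate 2, and without that array it did (0.64, 0.00717). The Setdb1 difference ran from 0.19 to 0.68 over the alternatives, and its adjusted p reached 0.564.

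Ehmt1 and Ehmt2 form the enzyme pair that makes mono- and dimethylated H3K9. Ehmt1 read 10.67, 10.26 and 10.13 in presort and 11.16, 10.57 and 10.66 in sorted replicates, a difference of 0.44 ± 0.20 (SE, limma adjusted p = 0.147). Ehmt2 read 10.41, 10.14 and 10.20 in presort and 10.50, 10.26 and 10.67 in sorted replicates, a difference of 0.22 ± 0.14 (adjusted p = 0.294). The groups of both overlapped, though all 3 replicate pairs were higher in sorted samples. With the replicate block Ehmt1 passed (0.0235). Over the alternatives its difference ran from 0.05 to 0.67, and its adjusted p reached 0.882.

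In the demethylases of H3K9, 3 of 6 rose and none fell, against 14.5% and 18.1% of all genes. Kdm3a, which removes mono- and dimethylation, read 10.60, 10.53 and 10.52 in presort and 11.99, 11.77 and 11.54 in sorted replicates, a rise of 1.22 ± 0.14 (SE, 2.32-fold, limma adjusted p = 0.000286). Kdm4b, which acts on trimethylated H3K9, read 7.17, 7.19 and 6.89 in presort and 7.75, 8.03 and 8.33 in sorted replicates, a rise of 0.95 ± 0.17 (adjusted p = 0.00306). Both had groups apart and 1 probe set each. The pair differences of Kdm3a were 1.39, 1.24 and 1.02 in replicates 1, 2 and 3, and those of Kdm4b were 0.58, 0.85 and 1.44.

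Kdm3b rose by 0.58 ± 0.13 (SE, limma adjusted p = 0.00852), and its dimmer probe set by 1.03. Its call was lost without replicate 2 (0.47, adjusted p = 0.102) and with the beta-actin covariate (0.50, 0.0703). Kdm4c narrowly missed at 0.55 ± 0.18 (0.0508) with groups apart, and passed with the replicate block (0.0263) and without sorted replicate 3 (0.69, 0.0301). The Kdm4c difference ran from 0.16 to 0.78 over the alternatives, and its adjusted p reached 0.482. Kdm4a at 0.15 and Kdm4d at 0.03 did not pass. Kdm4d, known from testis, read between 4.31 and 4.61 on all arrays, near the lower end of the scale, where a change would hardly show.

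The H3K27 demethylases Kdm6a and Kdm6b did not pass at their brightest probe sets. Kdm6a, also called Utx and X-linked, read 10.04, 10.03 and 10.03 in presort and 9.98, 10.38 and 10.27 in sorted replicates, a difference of 0.18 ± 0.13 (SE, limma adjusted p = 0.362). Kdm6b, an inducible gene of inflammatory signalling, read 10.91, 10.68 and 10.82 in presort and 10.66, 10.90 and 10.85 in sorted replicates, a difference of 0.00 ± 0.12 (adjusted p = 0.995). Its other probe sets did not share this: they rose by 0.60 and 1.61 (adjusted over probe sets, 0.0204 and 0.000915), and the mean of the 3 rose by 0.74 (0.00323). Whether Kdm6b passed, and by how much it rose, thus rests on the choice of probe set.

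Kdm7a, a demethylase of H3K9 and H3K27, was the sole demethylase that fell. It read 12.36, 12.17 and 11.97 in presort and 11.23, 11.37 and 11.31 in sorted replicates, a fall of 0.86 ± 0.13 on the log2 scale (SE, 1.82-fold lower, limma adjusted p = 0.00133), with groups apart. Its second probe set stood at 0.10 and was not called, and the mean of the 5 probe sets was -0.30 (0.0524). The H3K36 demethylases bind CpG-rich DNA in the case of Kdm2a and Kdm2b. Kdm2a rose by 0.64 ± 0.19 (adjusted p = 0.0344), with 2 of 7 probe sets called, whereas Kdm2b at -0.09 and Kdm8 at 0.17 did not pass. The Kdm2a call was lost with the mean of probe sets (0.24, 0.0745), with the beta-actin covariate (0.31, 0.325) and without replicates 1 or 3 (0.53, 0.0647; 0.60, 0.218). It was also lost without each presort array (0.0520 to 0.117) and without sorted replicates 1 or 3 (0.46, 0.0678; 0.62, 0.0907).

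The remaining SET domain genes act mainly on other substrates or have no settled activity. Kmt2e, whose SET domain has no established methyltransferase activity, read 11.25, 11.09 and 10.98 in presort and 12.40, 12.04 and 12.26 in sorted replicates 1, 2 and 3. It rose by 1.13 ± 0.13 (SE, 2.19-fold, limma adjusted p = 0.000409), and 5 of its 6 probe sets were called higher. Setd4 read 6.99, 7.01 and 6.99 in presort and 8.70, 7.88 and 7.44 in sorted replicates, a rise of 1.01 ± 0.28 (adjusted p = 0.0264). The sorted arrays of Setd4 were wide apart with replicate 1 highest: without sorted replicate 1 the rise was 0.67, without replicate 1 it was 0.66, and with the beta-actin covariate it was 0.35 and did not pass (0.213). Without replicate 2 (1.08, 0.116) or any presort array (0.0678 to 0.0783), and with the mean of probe sets (0.90, 0.0758), the call was lost as well.

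Setd3, an actin histidine methyltransferase, Setd5 and Setd7 did not pass, at 0.15, 0.14 and -0.06. The dimmer probe set of Setd3 fell by 0.74 (limma adjusted over probe sets, 0.0282). Setd6, which methylates the NF-kappaB subunit RelA, stood at -0.55 ± 0.24 (SE, adjusted p = 0.130), with sorted replicate 1 at 8.08 inside the presort range of 7.98 to 8.10 and the other sorted arrays at 7.04 and 7.36. Without sorted replicate 1 Setd6 passed at -0.84 (0.00257), without replicate 1 at -0.82 (0.00845), and with the beta-actin covariate at -1.10 (0.00316). The Setd6 difference ran from -1.10 to -0.15 over the alternatives, and its adjusted p reached 0.613.

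Across all probe sets of the family 48 of 127 were called higher and 9 lower, together 44.9%, against 28.8% of all probe sets with a symbol. No member had probe sets called in opposite directions. For Kdm6b, Setd1a, Kdm6a and Setd3 a dimmer probe set was called where the brightest was not. Of the 127 probe sets 30 had a mean under the median of all probe sets.

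**Figure D4:**
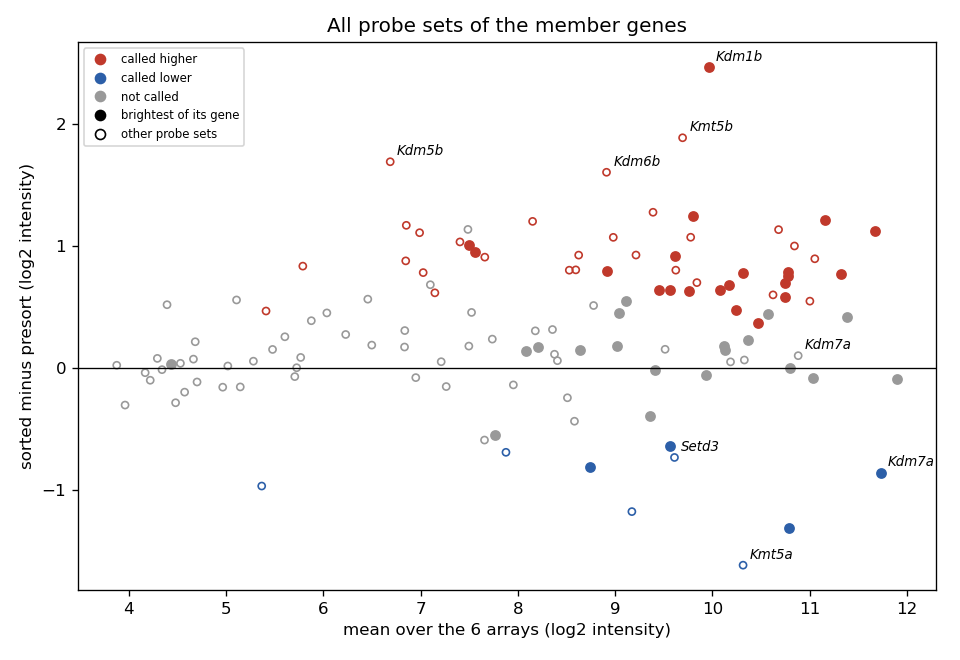
Difference between sorted and presort samples (y axis, log2 intensity) against the mean over the 6 arrays (x axis, log2 intensity) for all 127 probe sets; filled points stand for their gene and colours give the call. Called probe sets are mostly above 0, Kdm6b has a called probe set at 1.61, and probe sets under a mean of 5 lie between -0.31 and 0.52.

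The partner genes were called in both directions. Of 79 measured genes in the lists of complex subunits and related enzymes 24 were higher (30.4%) and 13 lower (16.5%), against 14.5% and 18.1% of all genes, so that the share of falls was near the background (limma adjusted p under 0.05 over all genes, as above). Their median difference was 0.05. Without replicate 2 the partner counts were 14 and 7 and without replicate 3 they were 12 and 6, beside the shares of all genes given above, and without presort replicate 3 they were 15 and 9, against 10.5% and 14.9%. For PRC2, 2 of 10 partners rose and none fell, against 14.5% and 18.1% of all genes. Jarid2, which recruits PRC2, rose by 1.71 ± 0.19 (SE, adjusted p = 0.000324), or 0.98 without _s_at and _x_at probe sets. Mtf2, another accessory subunit, rose by 0.57, a call lost without replicate 2 (0.53, 0.0772) or replicate 3 (0.58, 0.0659), with averaged probe sets (0.38, 0.0766) and beside the beta-actin covariate (0.44, 0.0681). The brightest partner Rbbp4, a histone chaperone, stood at -0.43 and did not pass (0.0538), though without _x_at and _s_at probe sets it did at -1.22 (0.00343), and the core subunits Eed and Suz12 stood at 0.14 and -0.03.

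In Polycomb repressive complex 1, which binds methylated H3K27, 7 of 16 subunits rose (43.8%) and 1 fell (6.25%), against 14.5% and 18.1% of all genes. Cbx7, a reader of that mark with 0.84 for its averaged probe sets, rose by 1.77 ± 0.42 (SE, limma adjusted p = 0.0132), but missed with the beta-actin covariate (0.85, 0.115), without replicate 2 (1.72, 0.0928), and without presort replicates 2 or 3 (0.0534 and 0.0552). Phc3 rose by 0.87, Phc1 by 0.85 and the ubiquitin ligase gene Rnf2 by 0.82, and these stood at 0.49 for Phc3 and 0.37 for Rnf2 with the mean of probe sets. Phc1 missed without replicate 3 (0.66, 0.143) or presort replicate 3 (0.74, 0.0521) and beside the beta-actin covariate (0.65, 0.114). The 1 subunit that fell, named after its values were seen, was Pcgf5 at -0.60. Its call was lost without replicates 2 or 3 (-0.46, 0.149; -0.67, 0.136), without sorted replicates 2 or 3 (0.0732 and 0.0747) and without each presort array (0.0647 to 0.106), under median centring (-0.37, 0.147) and with averaged probe sets (-0.47, 0.0914). The brightest subunit Yaf2 did not pass at -0.14, but did with averaged probe sets (-0.46, 0.00631).

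Among the COMPASS partners of the Kmt2 and Setd1 enzymes 2 of 12 rose and 4 fell, against 14.5% and 18.1% of all genes. The share of rises (16.7%) was thus near the background. The chromatin tether Psip1, which joins Men1 and Kmt2a, fell by 1.39 ± 0.28 (SE, log2, limma adjusted p = 0.00552), with -0.71 beside the beta-actin covariate and -0.86 for averaged probe sets. The core subunit Dpy30 stood at -0.94 and Paxip1 at -0.83, calls lost without replicate 3 (0.0864 and 0.0991) and, for Paxip1, without replicate 2 (0.0502), under median centring (0.0570) and with averaged probe sets (0.0706). Dpy30 also missed beside the beta-actin covariate (-0.66, 0.0661). Men1, which encodes menin, rose by 0.68, a call lost without replicate 3 (0.57, 0.0686). The brightest partner Hcfc1 did not pass at -0.40. For Kdm1a, 2 of 12 CoREST partners rose (16.7%, near the 14.5% of all genes) and 1 fell (8.33%, under the 18.1% of all genes). The fall was that of the erythroid and platelet repressor gene Gfi1b, at -2.83 ± 0.17 (adjusted p = 2.36e-05), beside erythroid marker genes with a median of -2.76. Zmym2, the brightest partner, rose by 0.92 and Gse1 by 0.50, the latter lost without replicates 2 or 3 (0.0619 and 0.164) or presort replicates 2 or 3 (0.0560 and 0.0636), with averaged probe sets (0.106) and beside the beta-actin covariate (0.08).

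Of the readers and cofactors of methylated H3K9, 3 of 8 rose and 2 fell, against 14.5% and 18.1% of all genes. The heterochromatin protein gene Cbx5 stood at -2.32 ± 0.17 (SE, limma adjusted p = 3.73e-05), with -1.19 when its probe sets were averaged, while Uhrf1, which maintains DNA methylation in S phase, stood at -2.11 ± 0.29 (0.000855). Cbx1 rose by 0.63 and Mphosph8 by 0.63, and the call of Mphosph8 was lost without _x_at and _s_at probe sets (0.19, 0.204) and without replicates 2 or 3 (0.0652 and 0.0776). The Cbx1 call was lost without each array except sorted replicate 1 (0.0596 to 0.135) and without replicates 2 or 3 (0.127 and 0.188), and averaged over its probe sets (0.30, 0.109). Trim28, the brightest of the list, did not pass at -0.03. Of the Dot1l partners 3 of 6 rose and none fell, against 14.5% and 18.1% of all genes. Mllt6 rose by 1.71, Aff4 by 1.08 and Aff1 by 1.01, and these stood at 0.71, 0.51 and 0.50 with the mean of their probe sets.

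Related enzymes that the symbol rule leaves out moved both ways, with 5 of 15 higher and 5 lower, against 14.5% and 18.1% of all genes. Prdm2, an H3K9 methyltransferase, rose by 2.05 ± 0.17 (SE, limma adjusted p = 6.70e-05; 1.27 for averaged probe sets), and the JmjC genes Phf2 and Jmjd1c by 1.42 (0.42 with that mean) and 1.19. Smyd2, a lysine methyltransferase of histone and other proteins, fell by 2.84 ± 0.16 on the log2 scale (adjusted p = 1.97e-05), more than any of the 44 members, and Riox1 stood at -1.50. Jmjd1c was also the brightest of this list.

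**Figure D5:**
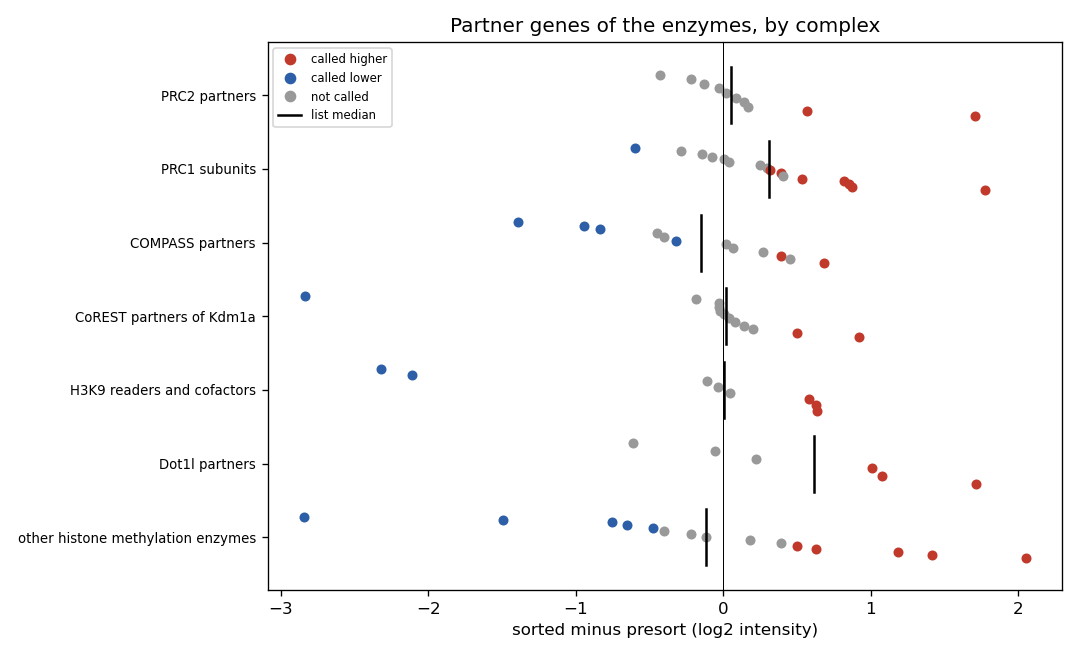
Difference between sorted and presort samples (x axis, log2 intensity) for 79 partner genes in 7 lists, coloured by call, with the list median as a black line. Medians run from -0.15 for COMPASS partners to 0.61 for Dot1l partners, and Smyd2 and Gfi1b lie farthest to the left.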

How the data were processed

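RNA of 3 presort and 3 sorted samples was read on 1 array each. Per the submitters' processing notes the authors made the values with RMA; the deposited table holds linear intensity, between 9.71 and 38492.08, with 1 distribution in all arrays, so changes in total RNA per cell leave no trace. The RMA version is not given in the sources used here. Log2 was taken with no pseudocount. Of 45101 probe sets, 34945 carried 1 symbol in the platform annotation, 932 several and 9160 none here, and 64 were controls; the 44 member symbols all matched the RefSeq table by Entrez number. Intensities of different probe sets are not compared as levels. No detection calls were used, and the 6 arrays limit the precision.

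The comparison used lmFit and eBayes of limma 3.58.1 under R 4.3.3 (two-sided, no filter), adjusted by Benjamini-Hochberg over 18193 genes with a threshold of 0.05; probe sets were fitted apart and adjusted over 34945. On simulated data for this comparison (18193 genes, 200 changed) the fit recovered 72% of log2 changes of size 1 and 95% of those of size 2, with 11 false calls. In the real data 32.6% of all genes were called, a far larger share than was changed in the simulation. The adjusted threshold depends on that share, so these figures do not carry over directly. Same-numbered samples share a pool per the labels; their deviations from the group means correlated at 0.39, 0.20 and -0.03 in replicates 1, 2 and 3, and the replicate block is an alternative. Others leave out arrays or pools, or change the filter, scaling, probe set summary, variance model or RNA quality term. The members, lists, motifs and alternatives were chosen with earlier results of these data known. All members are named; array values are given for the 10 largest called rises, the called falls and preset paralogue groups. Of a partner list, up to 4 largest called differences and the brightest gene are named, besides those said to be chosen later and Eed and Suz12 as background to members. Python 3.11.15 and matplotlib 3.10.9 were used besides.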

Additional observations from a re-analysis of the deposited data

How the results depend on the processing

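Over 18 alternatives, 12 of the 25 called members kept their call and 13 lost it in at least 1, while 9 uncalled members were called in at least 1. No called member changed sign. Leaving out an array or a pool gave 12 to 21 members higher and 3 to 5 lower, and 12 to 23 partner genes higher and 6 to 17 lower. The beta-actin covariate left 13 members higher. With each array centred on its median the median of all genes moved to 0.23 and that of the members to 0.67, 28 members were higher and 3 lower, 8 partner genes were lower, and 66.7% of all called genes were higher against 44.4% as deposited. Smyd3 turned to 0.0695 with the mean of probe sets and Smyd5 to 0.0017 without _x_at and _s_at probe sets, and neither passed there; the cause was not tested. With the replicate block 25 members were higher and 4 lower; Ehmt1, Kdm4c, Nsd3 and Setdb1 (adjusted p = 0.05 as rounded) were gained by it and no member's call was lost. Dim probe sets and 3 arrays a group limit what could be seen: an uncalled member is not shown to be unchanged.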
